A study of Mus musculus with 79 samples.

Results

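The cytoplasmic ribosomal protein genes were taken as every row of the count tables whose symbol names a protein of the large (Rpl) or small (Rps) ribosomal subunit, together with Rplp0, Rplp1, Rplp2 and Rpsa, leaving out pseudogenes marked as such and the Rps6 kinases. This gave 84 of the 23361 genes in the tables, 51 of the large and 33 of the small subunit. The mice carried enhanced GFP under the human S100β promoter, which labels Schwann cells, and both sexes were used. In each mouse a freshly cut common peroneal nerve was joined to the distal tibial stump, with a silicone conduit at the suture, either at once (immediate repair) or after the tibial nerve had been left cut for 8 weeks (delayed repair); immediate repair animals had a sham exposure of the nerve 8 weeks before surgery. Macrophages (F4/80, CD14, CD16/32 and CD11b positive) and Schwann cells (GFP positive, negative for the other markers) were sorted from the regenerative bridge at days 5 and 14, and the distal stump was taken at day 5. In all, 32 animals gave 79 libraries. Delayed repair was represented by 9 macrophage, 9 Schwann cell and 9 stump libraries at day 5 and by 7 of each sorted type at day 14. Immediate repair had 8 macrophage, 7 Schwann cell and 7 stump libraries at day 5 and 8 of each sorted type at day 14.

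A cytoplasmic ribosome holds a single copy of nearly all of these proteins, and their mRNAs are among the most abundant in growing cells. Most of the mRNAs begin with a run of pyrimidines, the 5′ terminal oligopyrimidine (TOP) tract, through which the mTORC1 pathway and the RNA-binding protein Larp1 set how strongly they are translated. Ribosome assembly starts in the nucleolus, where Myc promotes the transcription of ribosomal RNA and of assembly factors. Unassembled Rpl5 and Rpl11, which form a particle with the 5S RNA, bind Mdm2 and so stabilise p53. A few members have a second, diverged copy, here called a paralog, such as Rps27l beside Rps27 or Rpl22l1 beside Rpl22.

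The start of transcription is shown first, because most of these mRNAs are known to begin with a TOP tract, though fewer annotated starts showed a pyrimidine run. RefSeq promoters (GRCm38.p6) were matched for 63 of the 84 symbols and gave 75 start sites. At least 6 C or T bases in a row, all inside the stretch from 3 bases before to 10 bases after the start, were found at 27 of the 75 starts (36%), against 11.2% of all 32851 promoters in the reference. The windows below run 5′ to 3′ from 10 bases before the start to base 15 of the transcript on the gene's own strand, and capitals mark runs of 6 or more C or T, in or outside that stretch. The first 7 genes have 6 such bases inside it, and the last 3 do not.
Rps6, chr4:86857353-86857377, minus strand: gaagtcgggCCTCTTTTTCgtgacg
Rpl28, chr7:4792955-4792979, plus strand: tctcgtgTCTCTCTTTCCgtctccg
Rpl35, chr2:39005117-39005141, minus strand: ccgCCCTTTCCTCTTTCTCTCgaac
Rpl14, chr9:120571507-120571531, plus strand: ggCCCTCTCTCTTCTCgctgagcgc
Rpl7a, chr2:26910797-26910821, plus strand: CTCTTCTTTCTTTCTCCagcagccg
Rpl12, chr2:32961702-32961726, plus strand: agcaggatccgTCTTTTCggctttc
Rpl22l1, chr3:28805498-28805522, plus strand: gcgcaagcccgTTCTCTTCCCacgg
Rpl5, chr5:107900518-107900542, plus strand: cgtcgcttgcgtgctggtggtgcta
Rplp0, chr5:115559457-115559481, plus strand: cgggtttcgaggaccgcctggttct
Rpl7l1, chr17:46782642-46782666, minus strand: gctgcgcaagcgcagtagctgaagc
Among fixed letters, CTTTC stood in this 25-base window on the gene's strand at 20% of the member starts against 3.1% of all promoters, and CTCTT at 16% against 3.16%; both can overlap the pyrimidine runs. Searching 300 bases on both strands, from 250 before to 50 after the start, CCGGAA was found at 48% of member starts against 14.9%, GGGCGG at 60% against 35.7%, ATGGCG at 32% against 8.93% and TATAAA at 9.33% against 13.6%. These matches describe the letters only, and a start as annotated can differ from the one used in these cells.

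Macrophage libraries held between 14928745 and 28499407 counts and Schwann cell libraries between 11614940 and 30796823. Stump libraries were shallower, with 3898778 to 9212709. Levels are given as CPM, a gene's count divided by the total of its library and scaled to 1000000. The summed level of 10 macrophage marker genes was 19000 to 40100 CPM in the macrophage libraries. In the libraries labelled Schwann cells, 10 Schwann cell markers summed to 142 to 3570 CPM, S100b itself ran from 0 to 49.5 CPM, and 10 dendritic cell markers, among them Ccr7 at 2410 to 9820 CPM, summed to 23800 to 49600 CPM. The macrophage markers there ran from 247 to 12200 CPM, over 5000 CPM in 4 of these libraries. The defining Schwann cell genes were thus low against those of dendritic cells, and "Schwann cell" below names the sort gate. Whether a difference comes from the makeup of a sorted population or from the RNA of each cell was not tested, and in these bulk samples fewer cells of a type and less RNA per cell cannot be told apart.

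Ribosomal protein genes took a small share of the counts in macrophages and about 2 times that share in Schwann cells. In macrophages the share of the library total, given as lowest, median and highest, was 0.534%, 0.64% and 0.985% after delayed and 0.621%, 0.672% and 0.888% after immediate repair at day 5. At day 14 it was 0.548%, 0.726% and 0.873% after delayed and 0.58%, 0.656% and 1.03% after immediate repair. In Schwann cells it was 1.01%, 1.09% and 1.4% (delayed) and 1.01%, 1.31% and 1.69% (immediate) at day 5, and 1.21%, 1.4% and 1.52% against 1.24%, 1.52% and 1.61% at day 14. The delayed and immediate ranges overlapped in each of these pairs, whereas every Schwann cell library lay above the group medians of the macrophages. In the stump the share was 2.08%, 2.31% and 3.25% after delayed and 1.88%, 2.92% and 3.1% after immediate repair. Stump libraries were made from 100 ng of RNA by rRNA depletion and sorted cells from amplified cDNA of 1000 cells, so the stump share is not compared with the others. Within the stump the share moved with sequencing depth: the 8 libraries of lower total, 6 of them delayed, had a median of 2.16%, and the 8 of higher total, 3 of them delayed, a median of 2.98%.

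**Figure D1:**
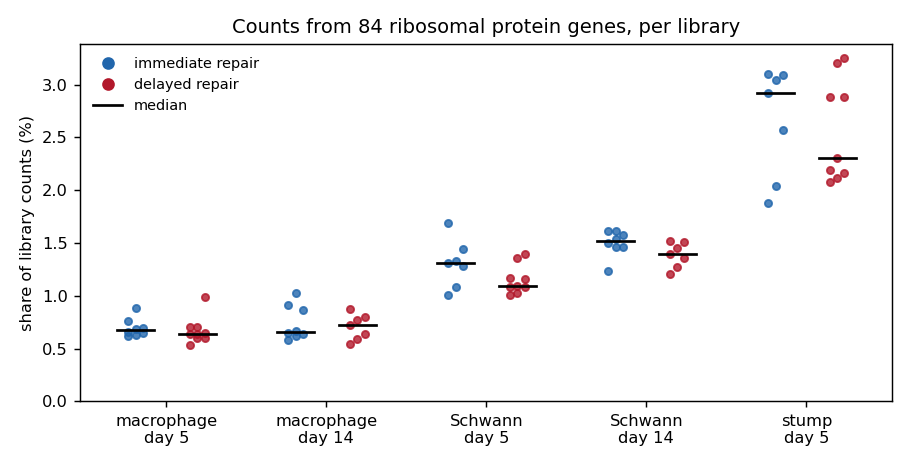
Share of each library's counts (%, vertical axis) that fell on the 84 ribosomal protein genes, by sample type and day; each point is a library, blue for immediate and red for delayed repair, and black lines are medians. Macrophage medians lie between 0.64% and 0.726%, Schwann cell medians between 1.09% and 1.52%, and delayed and immediate points overlap in every pair.

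Counts per kilobase of transcript allow levels of different genes to be set side by side within a sample type. By median CPM per kilobase the highest members in macrophages were Rpl13 (317), Rplp0 (311), the base of the ribosomal stalk, and Rps9 (308). In Schwann cells they were the paralog Rps27l (916), Rpl13 (697) and Rps19 (605), a small subunit protein needed to mature the 18S RNA. In the stump they were the stalk protein Rplp1 (1120), Rps12 (964) and Rpl41 (895). Rpl10l, a copy known from testis, was at 0 in all 32 macrophage and all 31 Schwann cell libraries and reached at most 2 counts in the stump. A count of 0 allows up to 3 counts, or 0.201 CPM in the smallest macrophage and 0.258 CPM in the smallest Schwann cell library. The muscle paralog Rpl3l stayed between 0 and 5.39 CPM and Rpl39l between 0 and 2.15 CPM in all libraries.

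Counting these genes is limited by their many processed pseudogenes. Of all 85-base windows of a member's transcript, a median of 43.2% also occurred in a transcript of another gene, 35 members had more than 50% of windows shared, and 3 had more than 90%: Rps27 (98.5%), Rpl5 (91.9%) and Rpl10 (91.7%). The deposited values of 4 members, Rpl26, Rpl30, Rpl34 and Rps27, were not whole numbers in any of the 79 libraries as deposited (tolerance 1e-06), and those of Rpl26 rounded to 0 in 13 of the 16 stump libraries. Values of these genes are uncertain. By contrast the paralogs Rps27l (6.75%), Rpl7l1 (3.05%) and Rps4y2 (4.42%) shared few windows. The row named Rps4y2 lies at chr6:148354656-148355598 (GRCm38), where GENCODE annotates Rps4l, a transcribed processed pseudogene that overlaps Tmtc1 on the other strand.

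Schwann cells and macrophages, nearly all from the same animals, were compared first, at each day. The fold changes were fitted from group means after scaling that sets most genes level. The main fits held no term for the animal, which was an alternative run. Most ribosomal protein genes were higher in Schwann cells. At day 5, 66 of the 81 members tested were higher and 1 lower (edgeR quasi-likelihood test, Benjamini-Hochberg adjusted p under 0.05), where 65.5% of all genes tested passed, 35.6% higher and 29.9% lower. At day 14, 74 were higher and 0 lower, against 36.9% and 27.5% of all genes (64.4% in either direction). An unadjusted p under 0.05 was found for 68 members at day 5, 67 of them higher, and for 76 at day 14, all higher, where 68% and 67% of all genes had one. DESeq2 called 74 members higher and 0 lower at day 14, beside 38.1% and 27.6% of all genes. The median log2 difference of the members was 0.58 at day 5 and 0.62 at day 14, beside 0.05 and 0.11 for all genes. The calls at both days shared 65 genes, 98.5% of those of day 5 and 87.8% of those of day 14. Scaling by library total alone, which moved the median of all genes to 0.31 and 0.48, gave 78 and 79 members higher and 0 lower, while 44.5% and 54.6% of all genes were then higher. The amount of cDNA used (4 ng for macrophages, 1.5 ng for Schwann cells) differed with the cell type, and its part cannot be told apart from it.

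**Figure D2:**
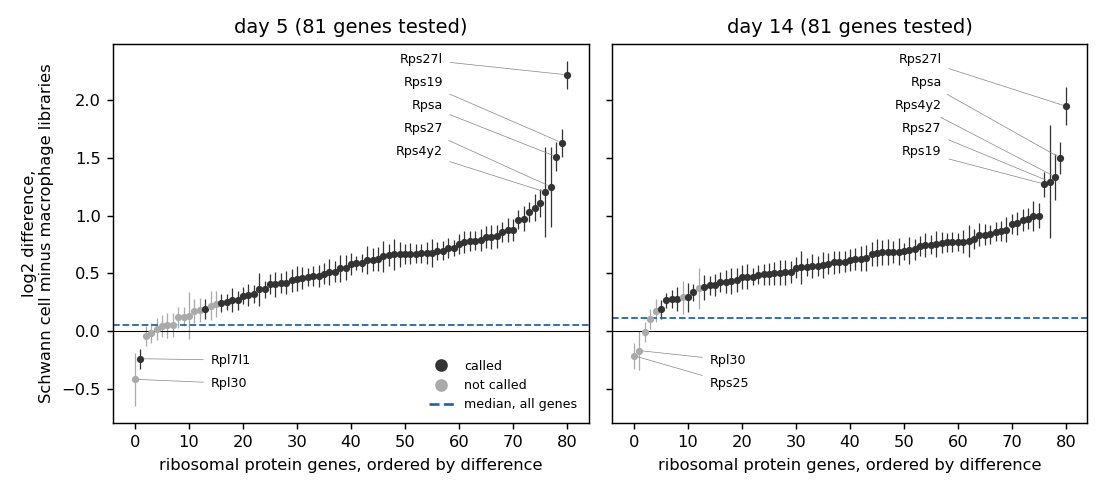
Log2 difference (vertical axis, Schwann cell minus macrophage libraries, with bars of 1 standard error) of the 81 ribosomal protein genes tested, ordered by size along the horizontal axis at day 5 (left) and day 14 (right); dark points passed the test and the dashed line is the median of all genes. Nearly all points lie above 0, with Rps27l highest at 2.22 and 1.95.

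The largest difference was that of Rps27l, a p53-inducible copy of the small subunit protein Rps27 (chr9:66946086-66949516, plus strand). At day 5 its level in macrophages, as lowest, median and highest, was 57.2, 83.4 and 145 CPM (delayed) and 67.1, 84.6 and 104 CPM (immediate). In Schwann cells it was 373, 432 and 574 CPM and 334, 473 and 608 CPM. Every Schwann cell library was above every macrophage library at day 5 and again at day 14. The log2 difference was 2.22 (SE 0.118, adjusted p 5.09e-17 by edgeR's quasi-likelihood test), a 4.65-fold difference, and 1.95 at day 14 (SE 0.164, adjusted p 1.23e-11). In the stump Rps27l was at 23.9, 41 and 87.3 CPM after delayed and 27.2, 58.4 and 68.6 CPM after immediate repair. Its parent Rps27 differed less (log2 1.25, adjusted p 0.00194, and 1.29, adjusted p 0.0219, edgeR), from values that are not whole counts and that ran from 0.197 to 59.7 CPM in macrophages and 20.8 to 136 CPM in Schwann cells at day 5. Other genes of the p53 list moved both ways in the same comparison: of 9 tested at day 5, 3 were higher in Schwann cells, among them Phlda3 (log2 3.65), and 3 lower, among them Mdm2 (log2 -1.75). These numbers are near the shares of all genes, 35.6% higher and 29.9% lower.

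Rps19 and Rpsa, both of the small subunit, followed at day 5. At day 14 Rpsa came next, and Rps4y2 and Rps27 lay above Rps19. Rps19, mutated in Diamond-Blackfan anemia, ranged from 123 to 208 CPM in the day 5 macrophages and from 387.5 to 875 CPM in the day 5 Schwann cells, with no overlap. The log2 difference was 1.63 (SE 0.12, adjusted p 1.33e-13, edgeR) at day 5 and 1.27 (SE 0.108, adjusted p 1.4e-11) at day 14. Rpsa, which is also known as the laminin receptor precursor, ran from 49.5 to 143 CPM and from 163 to 345 CPM at day 5, again with no overlap. Its log2 difference was 1.51 (SE 0.126, adjusted p 2.8e-12, edgeR) and 1.50 at day 14 (SE 0.139, adjusted p 9.66e-11). Rps4y2 was low throughout, at 0.865 to 9.14 CPM in macrophages and 0 to 24 CPM in Schwann cells at day 5. It was 2.3-fold higher in Schwann cells by fit (SE 0.389 on the log2 scale, adjusted p 0.00745, edgeR), a call that did not pass with the animal as a block (log2 0.98, adjusted p 0.0921). At day 14 the log2 difference was 1.34 (SE 0.199, adjusted p 8.34e-07).

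By role, 23 of 24 core proteins of the small subunit were higher in Schwann cells at day 5 and 22 at day 14. For the core of the large subunit, which includes Rpl3 at the peptidyl transferase centre, the numbers were 26 and 30 of 32. All 6 proteins of the decoding site and mRNA channel were higher at day 14 and 5 of them at day 5, and of the 8 around the peptide exit tunnel 6 and 7. Of the 4 stalk members, which recruit the elongation factors, 1 was higher at day 5 and 3 at day 14, where 35.6% and 36.9% of all genes were. Rplp2 differed by log2 0.66 and 0.50 at the respective days, while Rplp1 differed by 0.02 (adjusted p 0.875) and 0.18 (adjusted p 0.121), both by edgeR. Rplp0 had log2 differences of -0.04 (adjusted p 0.706) at day 5 and 0.27 (adjusted p 0.000659, edgeR) at day 14, when its levels of 487 to 783 CPM in Schwann cells lay above all macrophage libraries (373 to 463 CPM). Rpl12, at the foot of the stalk, had 0.22 (adjusted p 0.128) and 0.43 (adjusted p 0.000381, edgeR). Of the 5S particle, Rpl11 was higher at both days (log2 0.58 and 0.63) and Rpl5 at day 14 (log2 0.40, adjusted p 0.000651, edgeR; 0.13 and 0.172 at day 5). Rps27a, made as a fusion with ubiquitin, was higher at both days (log2 0.31 and 0.38).

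Among the other paralogs, Rpl22l1 and its parent Rpl22 both were higher in Schwann cells. Rpl22l1 was at 5.91 to 12.2 CPM in macrophages and 11.2 to 29.4 CPM in Schwann cells at day 5 (log2 0.66, SE 0.135, adjusted p 6.68e-05, edgeR) and differed by 0.55 at day 14. Rpl22 differed by 0.54 and 0.70. Rpl7l1, an Rpl7-like protein, was the 1 member called lower at day 5. It ranged from 78.6 to 130 CPM in macrophages and from 51.7 to 139 CPM in Schwann cells, almost complete overlap, and its fitted log2 difference was -0.24 (SE 0.0857, adjusted p 0.0155, edgeR). That call was lost without any 1 of 7 of the 17 animals, and with scaling by library total the sign reversed. Its parent Rpl7 was higher at day 5 (log2 0.67) and day 14 (log2 0.68).

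**Figure D3:**
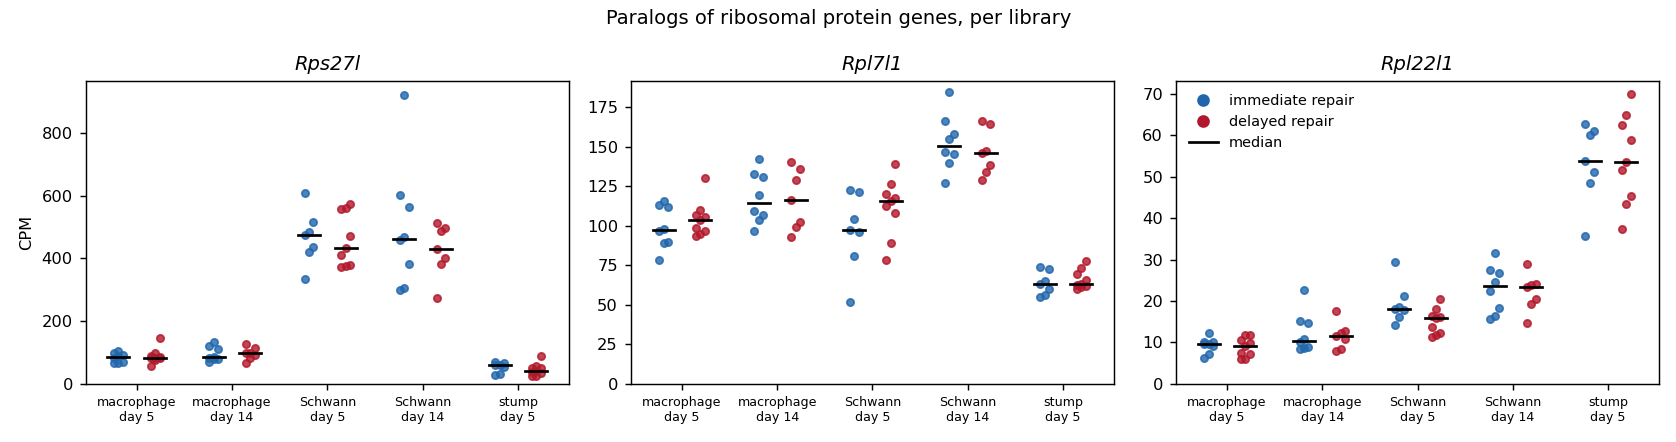
Level (CPM, vertical axes, each starting at 0) of the paralogs Rps27l, Rpl7l1 and Rpl22l1 in every library, by sample type and day; blue is immediate and red delayed repair, and black lines are medians. Rps27l separates Schwann cell from macrophage libraries without overlap, whereas Rpl7l1 overlaps at day 5.

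The share of higher members was compared between subsets as a description. Of members with at most 50% of windows shared with other genes, 37 of 46 were higher at day 5 and 42 of 46 at day 14, and of those with more, 29 and 32 of 35. Of those with 6 pyrimidines inside that stretch at the start, 22 and 26 of 26 were higher, and of matched members without them 26 and 29 of 34. Without the Schwann cell libraries of more than 5000 CPM of macrophage markers, 71 members were higher at day 5 and 73 at day 14, and 0 lower, beside 37.6% and 36.7% of all genes higher and 27.1% and 27.6% lower. Other genes of the translation machinery did not all go the same way. In the main fits 35.6% of all genes were higher and 29.9% lower at day 5, and 36.9% and 27.5% at day 14. Of 17 translation factors whose mRNAs carry a TOP tract, 10 were higher and 2 lower in Schwann cells at day 5 and 13 and 1 at day 14. Eif3f was higher (log2 0.95 and 0.77) and Tpt1 lower at day 5 (log2 -0.56). Of ribosome biogenesis genes, 5 were higher and 21 lower of 49 at day 5 and 19 higher and 7 lower of 50 at day 14. Of 76 mitochondrial ribosomal proteins 7 were higher and 37 lower at day 5, and 20 and 14 at day 14. Median log2 differences at day 5 were -0.36 for biogenesis genes and -0.35 for mitochondrial ribosomal proteins, beside 0.58 for the cytoplasmic ones. At day 14 they were 0.13 and -0.03, beside 0.62.

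The comparison of day 14 with day 5 asked how expression changed as repair went on, with both repair groups in the fit. In Schwann cells 7 members rose and 1 fell of 81 tested, against 7.68% of all genes that rose and 11.9% that fell (19.6% together). The members that rose included several of the large subunit. Rpl10a ran from 39.4 to 77.5 CPM at day 5 and 61.5 to 111 CPM at day 14 (log2 0.37, SE 0.101, adjusted p 0.00936, edgeR). Rpl14, whose start is shown above, was at 96 to 185 and 146 to 225 CPM (log2 0.30, SE 0.0749, adjusted p 0.00469), and Rpl5 was at 73.3 to 142 and 109 to 236.5 CPM (log2 0.37, SE 0.102, adjusted p 0.0105). In each of Rpl10a, Rpl14, Rpl5, Rpl3 and Rpl7l1 the ranges overlapped, and all 15 libraries of day 14 exceeded the day 5 mean in CPM. CPM is scaled by library total alone, and on that scale the median of all genes rose too, as given below. How many other genes met this was not counted. Rpl7l1 rose by log2 0.34 (adjusted p 0.0083), Rpl3 by 0.27 (adjusted p 0.0227) and Rplp1 by 0.27 (adjusted p 0.0463, edgeR throughout). Rps19 fell by 0.39 on the log2 scale (SE 0.138, adjusted p 0.0461). Its CPM of 387.5 to 875 and 386 to 654 overlapped widely, and the call was lost without any 1 of 18 of the 31 libraries; that of Rplp1 was lost without any 1 of 11.

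These counts depended on the scaling and on a few libraries. With library totals alone, which moved the median log2 change of all genes from 0.06 to 0.26, 44 members rose and 0 fell, where 15.7% of all genes rose and 6.63% fell, while the members' median, 0.26, stayed level with that of all genes. Without the 4 Schwann cell libraries rich in macrophage markers, 3 members rose and 0 fell (4.95% and 9.23% of all genes). Markers of other cells also moved with time: 6 fibroblast markers summed to medians of 603 (delayed) and 1590 CPM (immediate) at day 5 and 5080 and 7110 CPM at day 14. The 10 Schwann cell markers went from 228 and 676 CPM to 1980 and 832 CPM, with a median log2 change of 1.48 over their genes, and the macrophage markers from 3390 and 1050 to 1890 and 1870 CPM (median log2 change -0.52). The neutrophil markers went from 240 and 15.6 to 67.3 and 216 CPM, although their fitted log2 changes had a median of 1.77. The part of these markers in the changes was not tested. Other genes of ribosome production are given beside them, from the main fit, in which 7.68% of all genes rose and 11.9% fell. Of 50 ribosome biogenesis genes, 22 rose and 0 fell, with a median log2 change of 0.58; the box C/D protein Nop58 (log2 1.32), the box H/ACA protein Gar1 (1.06) and the endonuclease Nob1 (1.02) were among them. Of 76 mitochondrial ribosomal proteins 25 rose and 2 fell. Of 19 genes of the mTORC1 and Myc list 4 rose and 3 fell, with a median log2 change of 0.08. The extremes of that list were Myc, which rose by log2 1.47 (adjusted p 0.000666), and its antagonist Mxd1, which fell by 1.32, both by edgeR.

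In macrophages 0 members rose and 3 fell of 81 tested from day 5 to day 14, where 12.5% and 12.9% of all genes did (25.4% together). By unadjusted p under 0.05 there were 4, all lower at day 14, where 36.6% of all genes had such a p, and DESeq2 called 0 higher and 3 lower (13.4% and 13.9% of all genes). The falls were of Rpl7a (log2 -0.29, SE 0.0996, adjusted p 0.0298), the stalk base Rplp0 (log2 -0.22, SE 0.0672, adjusted p 0.0144) and Rpl29 (log2 -0.22, SE 0.0735, adjusted p 0.0286), by edgeR. Rplp0 ran from 347 to 557 CPM at day 5 and 373 to 463 CPM at day 14, Rpl7a from 58.4 to 104 and 45.9 to 98.3 CPM, and the ranges overlapped. With library totals alone these 3 did not pass, 2 other members were higher and 0 lower (21.4% and 6.48% of all genes), and the members' median changed sign from -0.03 to 0.09 as that of all genes moved from 0.01 to 0.12. Without the delayed replicate 6 of day 14, 1 member was called. Marker lists of other cells moved in the same comparison. The 10 dendritic cell markers summed to 1850 to 5200 CPM (delayed) and 1100 to 4220 CPM (immediate) at day 5 and to 7720 to 19900 and 8520 to 16200 CPM at day 14, with no overlap. Cd74 alone had medians of 2230 and 2020 CPM at day 5 and 7530 and 8220 CPM at day 14. Ccr7 went the other way, from medians of 20.3 and 24.5 CPM to 6.92 and 5.55 CPM. Over the 6 members of this list tested, the log2 changes ran from -1.22 to 2.40. The 5 neutrophil markers went from medians of 302 and 317 CPM to 137 and 143 CPM, and the 6 fibroblast markers from 16.2 and 18.9 to 67 and 78.2 CPM; the part of these markers in the falls was not tested.

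Whether the time course differed between the cell types was tested as an interaction. The change from day 5 to day 14 was more positive in Schwann cells than in macrophages for 2 members and less so for 0, against 5.04% and 10.8% of all genes (15.9% together). Among them was the large subunit protein Rpl7a (difference of log2 changes 0.37, SE 0.133, adjusted p 0.0476 by edgeR). Rpl7a medians in macrophages went from 66.5 and 71.5 CPM (delayed and immediate) at day 5 to 61.8 and 56.1 CPM at day 14, and in Schwann cells from 83.8 and 102 to 110 and 116 CPM. It did not pass without the filter on low counts (adjusted p 0.0657, edgeR) or when the members were left out of the scaling (adjusted p 0.0509), where 0 members were called.

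Delayed against immediate repair, the contrast the study was built for, gave no call among the ribosomal protein genes of sorted cells. In macrophages at day 5, 0 of 80 members tested passed, where 0.0357% of all genes did, 0.0119% higher and 0.0238% lower. In macrophages at day 14 (80 members) and Schwann cells at days 5 and 14 (81 members each), 0 passed, as did 0% of all genes. DESeq2 also called 0 members in each of these 4 comparisons. By unadjusted p under 0.05, 6 members were below immediate repair in day 5 macrophages, 0 at day 14, 6 in day 5 Schwann cells and 3 at day 14, with 0 above it in each; among all genes the unadjusted share was 5.17%, 2.21%, 5.26% and 3.65%.

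The fitted differences were small and mostly below 0. In day 5 macrophages 78 of the 80 log2 differences were below 0, with a median of -0.13 beside 0.01 for all genes. In day 14 macrophages it was 71 of 80 with a median of -0.05 beside 0.00. In Schwann cells it was 79 of 81 at day 5 (median -0.22 beside -0.01) and 78 of 81 at day 14 (median -0.14 beside -0.01). Of the 80 members tested in all 4 comparisons, 67 were below 0 in each. Members move together between libraries, so this number does not count independent genes. With library totals as the scale, the medians were -0.03, -0.07, -0.20 and -0.09, beside 0.10, -0.02, 0.00 and 0.03 for all genes. Leaving out single libraries, the median ran from -0.22 to -0.05 in day 5 macrophages, from -0.11 to 0.03 in day 14 macrophages, from -0.27 to -0.15 in day 5 and from -0.17 to -0.08 in day 14 Schwann cells. The weakest of these came without immediate replicate 6 of day 5 (-0.05) and immediate replicate 8 of day 14 (0.03, the 1 change of sign), and the strongest without delayed replicate 8 of day 5. The day 5 Schwann cell libraries of the delayed group also held more macrophage marker RNA (median 3390 CPM against 1050 CPM); without the 2 richest the median was -0.17. The 10 Schwann cell markers there summed to medians of 228 CPM after delayed and 676 CPM after immediate repair, the 6 fibroblast markers to 603 and 1590 CPM and the 5 neutrophil markers to 240 and 15.6 CPM. At day 14 the Schwann cell markers were at 1980 and 832 CPM. The part of these markers in the differences was not tested.

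The members of smallest p show the size of these differences. Rps20, which sits on the head of the small subunit, was at 37.7, 41.9 and 71.4 CPM after delayed and 43.5, 52.1 and 63.3 CPM after immediate repair in day 5 macrophages. The ranges overlapped, 8 of 9 delayed libraries lay below the immediate mean, and the log2 difference was -0.34 (SE 0.111, adjusted p 0.655, edgeR). Rplp0 there was at 347, 412 and 478 against 402, 459 and 557 CPM (log2 -0.29, SE 0.111, adjusted p 0.817, edgeR). In day 5 Schwann cells Rps21 was at 22.6, 29.4 and 39.1 CPM after delayed and 27.2, 44.3 and 60.4 CPM after immediate repair, with all 9 delayed libraries below the immediate mean (log2 -0.50, SE 0.182, adjusted p 0.836, edgeR). Rps28 (log2 -0.47, adjusted p 0.862) and Rpl41 (log2 -0.42, adjusted p 0.884) were next. In day 14 macrophages the smallest p was that of Rps25 (log2 -0.28, SE 0.145, adjusted p 1, edgeR), and the lowest log2 difference, -1.10 for Rps27 (SE 0.775), came from values that are not whole counts. In day 14 Schwann cells Rps4y2 had the smallest p: 3.62, 9.73 and 14 CPM against 9.35, 15.8 and 19.1 CPM, all 7 delayed libraries below the immediate mean, log2 -0.84 (SE 0.297, adjusted p 0.998, edgeR). The interaction of repair with day was called for 0 of 81 members in macrophages and 0 of 81 in Schwann cells (0.0223% and 0% of all genes); 0 members had an unadjusted p under 0.05, and DESeq2 called 0 in both.

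**Figure D4:**
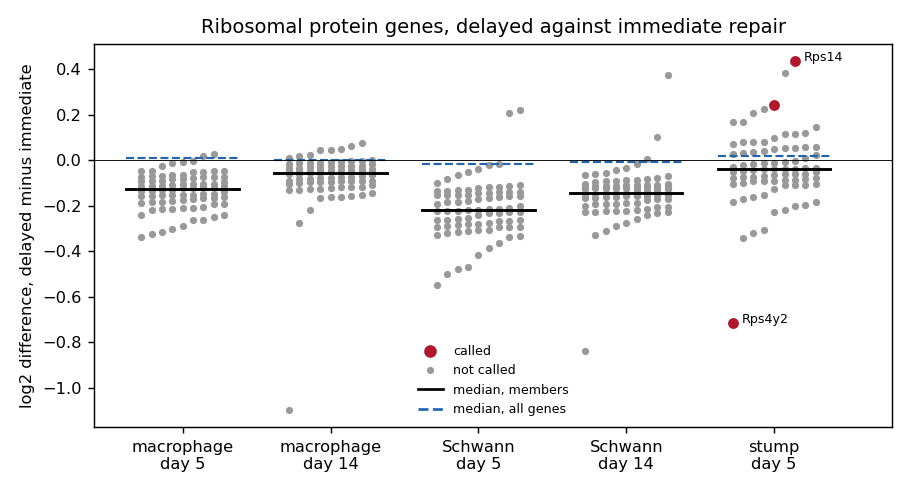
Log2 difference between delayed and immediate repair (vertical axis) for each ribosomal protein gene tested in the 5 comparisons along the horizontal axis; red points passed the test, grey did not, black lines are the members' medians and dashed blue lines those of all genes. In the sorted cells the members' medians lie at -0.13, -0.05, -0.22 and -0.14 with no red point, and in the stump 3 genes passed.

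The distal stump differed most between repairs over all genes, but few of its ribosomal protein genes did. Of 79 members tested, 2 were higher and 1 lower after delayed repair, where 26.3% of all genes passed, 12.8% higher and 13.5% lower. The members' median log2 difference was -0.04, beside 0.02 for all genes. Schwann cell markers summed to 125, 309 and 874 CPM after delayed and 1430, 2590 and 3400 CPM after immediate repair. The 6 endothelial markers summed to 947, 1110 and 1430 against 600, 724 and 839 CPM, and the 10 dendritic cell markers to 892, 1310 and 1670 against 529, 813 and 1370 CPM. The 10 macrophage markers summed to 3820, 5100 and 6430 against 1660, 3030 and 6160 CPM. The part of these markers in the results was not tested.

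Rps4y2 was at 5.43, 9.97 and 17.3 CPM after delayed and 13.4, 18.9 and 19.4 CPM after immediate repair. All 9 delayed libraries were below the immediate mean, although the ranges overlapped. The log2 difference was -0.72 (SE 0.2, adjusted p 0.0142 by edgeR's quasi-likelihood test), and it passed without any single library. In sorted cells its level in Schwann cells was likewise lower by fit, log2 -0.48 at day 5 (adjusted p 0.984) and -0.84 at day 14 (adjusted p 0.998), but neither passed with edgeR. In macrophages, where it was too low to be tested between repairs, its median was 3.81 CPM after delayed and 3.07 CPM after immediate repair at day 5 and 4.3 and 3.52 CPM at day 14, with overlapping ranges. Rps14, whose protein lies on the platform of the small subunit, was at 461, 553 and 979 CPM after delayed and 400, 454 and 531 CPM after immediate repair, with 8 of 9 above the immediate mean (log2 0.44, SE 0.147, adjusted p 0.0363, edgeR).

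The rises in the stump were near the threshold. Rps14 was lost without any 1 of 8 of the 16 libraries, and 1 member in all was called without each of immediate replicates 1, 2 and 3. Without the filter on low counts 0 members were higher and 1 lower (5.52% and 8.63% of all genes). With log2 library total as a covariate, 4 members were higher and 1 lower (14.7% and 14.6% of all genes), and the median of the members turned from -0.04 to 0.13. Of the other lists, the 17 TOP translation factors lay between log2 -0.25 and 0.24, with 0 called and the smallest adjusted p being 0.14 for Eef2 (edgeR). Of 50 biogenesis genes 1 was higher (Taf1d, log2 0.38) and 1 lower (Gnl2, log2 -0.45), and of 76 mitochondrial ribosomal proteins 0 were higher and 9 lower (11.8%, beside 13.5% of all genes), with a median of -0.15.

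**Figure D5:**
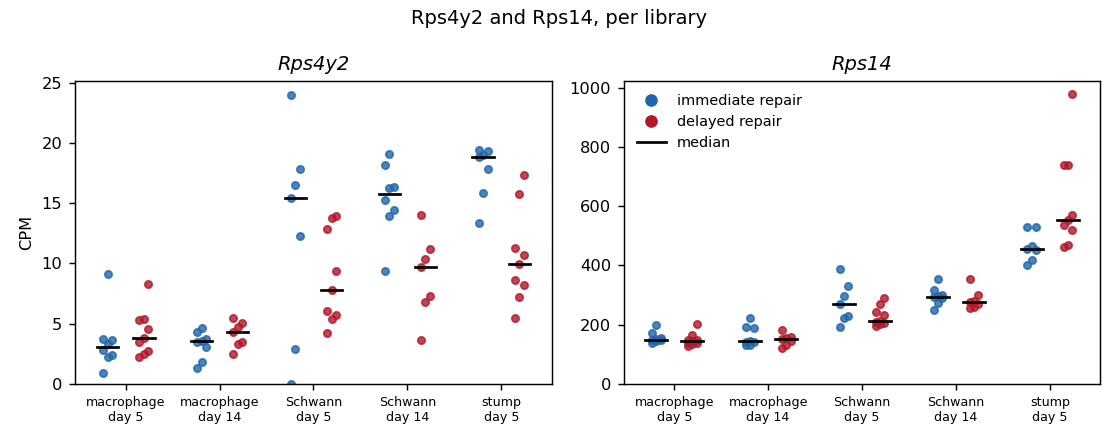
Level (CPM, vertical axes, each starting at 0) of Rps4y2 and Rps14, which passed in the stump, in every library by sample type and day; blue is immediate and red delayed repair, and black lines are medians. In the stump the delayed median is below the immediate one for Rps4y2 (9.97 against 18.9 CPM) and above it for Rps14 (553 against 454 CPM).

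Members varied together from library to library. The log2 of each member's CPM plus 1, less the mean of its group, was correlated with the mean of the others within a sample type. Values of 1 library share its depth and composition, and the correlations are given as a description. Over the 16 stump libraries the median Pearson r was 0.958, over the 32 of macrophages 0.943 and over the 31 of Schwann cells 0.799. It was over 0.5 for 79, 76 and 72 members. Rpl7l1 did not follow the others in macrophages (r -0.26), nor did Rps27l in Schwann cells (r -0.13), though it did in macrophages (r 0.94) and the stump (r 0.90). Rps4y2 had r of 0.24 in both sorted types and 0.10 in the stump. Rplp0 was the steadiest member in 3 of the 4 macrophage groups, with coefficients of variation of 9.22%, 6.71% and 9.11%.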

How the data were processed

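RNA was sequenced from macrophages, Schwann cells and distal stump. The authors trimmed reads with cutadapt 1.8 and aligned them with TopHat2 2.1.1 to mm10. The labels also name Cufflinks 2.2.1 and Cuffnorm. The deposited tables hold estimated counts per gene without normalization or filter, and the program behind them is not given in the sources used here. Values were rounded to whole numbers. Genes reaching 5 CPM in 6 or more libraries of a comparison were tested over the whole table with edgeR 4.0.16 (TMM scaling, quasi-likelihood F test; R 4.3.3) and Benjamini-Hochberg adjustment at 0.05. The contrasts were tested on simulated data. DESeq2 1.42.0, other scalings and filters, sex, a replicate block and leaving out single libraries were alternatives. P-values measure the spread between these samples, each from its own animal within a group.

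Members, lists and tests were chosen with earlier results of these data known. Named genes were the up to 5 largest rises and falls among calls, otherwise the 3 smallest p, plus paralogs with parents, the stalk, the 5S particle, Rps27a and extremes of level; others were chosen after their values were seen, and a few members are counted but not reported here by name. Macrophages and Schwann cells are paired by animal: over 16 pairs at day 5 and 15 at day 14 the median r of their deviations was 0.125 and 0.129. It was over 0.1 in 11 pairs at each day, so not in every pair. Transcripts are GENCODE vM21 and promoters RefSeq GRCm38.p6.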

Additional observations from a re-analysis of the deposited data

Results flagged for a closer look

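Within-group outliers were sought in 162 sets of values, the share and named members in each group, by the gap of the highest or lowest library to its neighbour (Dixon's 95% limit), and 19 (11.7%) were found; chance gives about 1 in 20, and the sets are not independent because members move together. Most lay in 1 library, the delayed day 5 macrophage replicate 8. Its ribosomal share was 0.985% where the next of its group was 0.706%, and it was the highest for Rpl11 (81.2 CPM), Rpl29 (57.4), Rpl7a (98.2), Rplp2 (101), Rps19 (208), Rps20 (71.4), Rps27a (127), Rps27l (145) and Rpsa (143). Without it the median log2 difference of the members between delayed and immediate repair was -0.22 instead of -0.13, with 0 calls either way. In the same group replicate 2 was highest for Rpl7l1 (130 CPM).

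In the immediate day 5 macrophages replicate 6 was highest for Rpl7a (104 CPM), Rps2 (194) and Rpsa (115), and replicate 8 for Rpl29 (51.7) and Rps4y2 (9.14). In day 14 Schwann cells delayed replicate 1 was highest for Rps21 (60.4 CPM), and immediate replicate 4 was lowest for the share (1.24%, next 1.46%) and Rps26 (69 CPM).

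The change from day 5 to day 14 differed between Schwann cells and macrophages for Rpl7a (0.368 on the log2 scale) by edgeR's interaction test, a call lost without the filter on low counts and when the members were left out of the scaling.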

How the results depend on the processing

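The repair contrasts of sorted cells gave 0 calls under every alternative run. In the stump the 3 calls became 1 without the filter on low counts, 1 with the replicate block and 5 with library total as a covariate, and ran from 1 to 3 without single libraries. In macrophages the 3 day calls ran from 1 to 4 without single libraries. In Schwann cells the 8 day calls became 44 with library totals, 5 without the filter and 3 without the libraries rich in macrophage markers, and ran from 5 to 11 without single libraries. The 67 and 74 calls between cell types ran from 64 to 72 and from 71 to 76 without single animals. The 2 interaction calls of day and cell type, both higher, became 6 higher with DESeq2 and 6 higher with library totals (7.55% and 7.06% of all genes). They became 0 when members were left out of the scaling and 4 higher with the animal block (5.01% and 5.53% of all genes). Without the filter 0 members were higher and 1 was lower (3.46% and 6.35% of all genes), so neither call remained. The day 5 log2 difference of Rpl7l1 between cell types reversed to 0.0315 (adjusted p 0.784, edgeR) with library totals. Without the 100 most abundant other genes, the median share rose to 1.04% (macrophages), 1.9% (Schwann cells) and 3.51% (stump). The cause of these changes was not tested. Omitting libraries rich in macrophage markers and the library total covariate were chosen after seeing the data.

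Between repair groups the replicate number did not pair the samples by the rule that every pair exceed r 0.1, which 7 of 8 and 6 of 7 macrophage pairs (days 5 and 14, median r 0.254 and 0.256), 3 of 7 Schwann cell pairs at each day (0.0938 and 0.0665) and 1 of 7 stump pairs (-0.0521) did; with the block Rps14 had adjusted p 0.148 by edgeR. The animal block changed, among named genes of the cell type comparisons, only the day 5 call of Rps4y2. Sequence shared with pseudogenes and the lower depth of the stump libraries limit what can be read from single members.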

Other observations

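By sex, the median ribosomal share of macrophage libraries was higher in females in all 4 groups. At day 5 it was 0.651% against 0.62% in males after delayed and 0.727% against 0.643% after immediate repair, and at day 14 it was 0.767% against 0.681% and 0.789% against 0.64%. In Schwann cells the medians went both ways (at day 5, 1.09% in females against 1.12% in males after delayed and 1.28% against 1.32% after immediate repair; at day 14, 1.4% against 1.44% and 1.53% against 1.52%). In the stump they were 2.88% against 2.14% after delayed and 2.92% against 2.54% after immediate repair. Each sex had 3 to 5 libraries per group, and the pattern was seen in the data and was not tested.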
